A study of Mus musculus with 24 samples.

Results

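The light phase of the day was compared with the dark phase in the liver of mice that ate ad libitum (AL). The light group held the 6 AL libraries of zeitgeber times (ZT, hours after lights on) 2, 6 and 10 h, and the dark group held the 6 AL libraries of ZT14, 18 and 22 h, out of 24 libraries in the study. The libraries were chosen by their labelled hour alone, with hours from 12 h on counted as dark, and all genes were read. All animals were C57BL/6 mice of 5 months. The other 12 libraries came from mice under calorie restriction (CR), which lowered calories by 30% from 2 months of age for 3 months, with 2 libraries at each of the same 6 hours, and were used only where the diets are set side by side. What was sequenced was RNA recovered with polysomes, that is, messenger RNA carrying several ribosomes. Total RNA was not analysed here, so that a difference in the amount of a transcript and a difference in its loading onto ribosomes cannot be told apart. Neither the light schedule nor the meal times under CR could be taken from the sources used here.

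Mice eat mostly at night, so that liver under free feeding passes through a daily fast in the light phase and a meal in the dark phase. Liver cells also hold a circadian clock. In it, the activators ARNTL (BMAL1) and CLOCK or NPAS2 switch on the Per and Cry repressors and the nuclear receptors REV-ERBα and REV-ERBβ (Nr1d1 and Nr1d2), and the repressors in turn shut the activators off. REV-ERB proteins compete with the ROR receptors for the same DNA element, through which Arntl, Npas2 and Cry1 are repressed when REV-ERB is abundant. Translation of ribosomal protein mRNAs is known to follow feeding through the kinase mTOR, which acts on the short pyrimidine tract at the start of these mRNAs.

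Counted reads per library numbered 18.7 to 37.6 M in light and 13.8 to 36.4 M in dark. Hepatocyte markers such as albumin were the most abundant of the cell type lists, with a summed level of 38469 to 80664 CPM (counts scaled to the TMM-adjusted library size) in light and 38739 to 79512 CPM in dark. Markers of endothelial cells summed to 163 to 198 CPM in light and 133 to 268 CPM in dark, those of cholangiocytes to 29.3 to 46.2 and 34.6 to 115 CPM, of T, B and NK cells to 11.5 to 37.8 and 5.94 to 19.5 CPM, and of erythroid cells to 683 to 1790 and 389 to 2551 CPM. Those of stellate cells summed to 93.1 to 335 CPM in light and 133 to 170 CPM in dark and those of adipocytes to at most 6.09 and 7.15 CPM. Features that collect ribosomal RNA took 19 ± 14.1% of the reads in light and 43.2 ± 21.9% in dark (SD, n = 6 libraries each). Set against the remaining reads as a log2 ratio, they averaged -2.73 in light and -0.60 in dark, a difference of -2.13 (exact permutation test, 924 splits, two-sided p = 0.0866, adjusted p = 0.130 over 3 library measures). The AL ZT22 library named 2C stood apart in several gene groups, and values without it are given where they matter. The labels number the libraries of a time point and name no animals, so p-values reflect only how far these libraries scatter, and part of that scatter may be technical.

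Between the phases, 8 of 14227 tested genes (0.0562%) differed at an adjusted p under 0.05 in edgeR's quasi-likelihood test (Benjamini-Hochberg), 5 higher and 3 lower in light. Values of 7 of the 8 are given here. Among them, the lowest p belonged to clock genes: Nr1d1, the REV-ERBα repressor, was higher in light, and Cry1, a repressor of the CLOCK complex, was lower. The next 5 were the lipid elongase Elovl5, the arginine and lysine transporter Slc7a2, the microRNA host gene Mir22hg and the long noncoding RNA Gm36041, all higher in light, and the chaperone gene Hsph1, lower in light. In Nr1d1, Cry1 and Mir22hg no light library overlapped a dark one. Over all tested genes the light libraries were all above the dark ones in 63 genes (0.443%) and all below them in 17 genes (0.119%). In the simulated version of this comparison, 40 of 100 simulated differences of 1 log2 unit and 82 of 100 of 2 log2 units were recovered, so that changes of 2-fold were often missed. More genes were called in the simulation than in these data, which makes the adjusted threshold easier to pass. Recovery in these data may therefore be lower. Leaving out a single library gave 189 calls without the second ZT6 library, 60 without the second ZT18 library, 27 without the first, 26 and 15 without AL ZT22 2d and 2C, and 1 to 5 without any of the other 7. Without a composition factor, that is, with levels scaled to total counts alone, the median difference of all tested genes was 0.64 log2 units, against 0.01 here, so the directions of gene groups are relative to the other mRNAs.

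**Figure D1:**
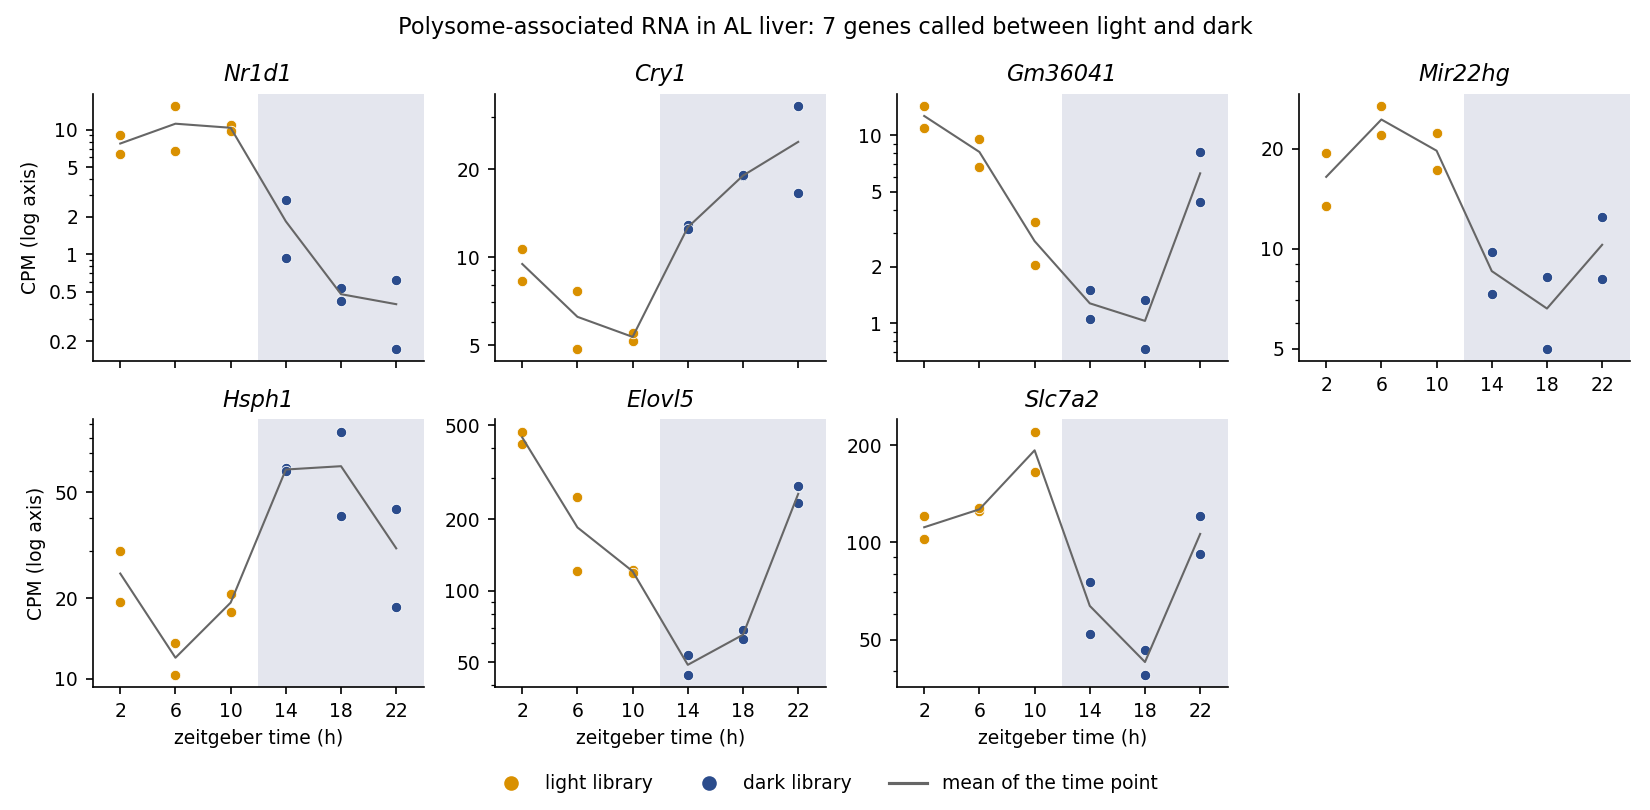
Normalised level (CPM, log axis) of 7 genes called between light and dark, against zeitgeber time in hours. Each point is 1 AL library, orange in light and blue in dark with the dark hours shaded, and the line joins the means of the 2 libraries of each time point. Nr1d1 stays between 6.35 and 15.6 CPM in light and at 2.74 CPM or below in dark, and Elovl5 is highest at ZT2 and lowest at ZT14.

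Nr1d1 measured 9.12 and 6.35 CPM at ZT2, 15.6 and 6.75 CPM at ZT6 and 11 and 9.75 CPM at ZT10, against 2.74 and 0.931 CPM at ZT14, 0.533 and 0.421 CPM at ZT18 and 0.62 and 0.172 CPM at ZT22. All 6 light libraries lay above all 6 dark ones, and within the dark phase the level was highest at ZT14. The mean was 9.75 ± 3.36 CPM in light and 0.903 ± 0.933 CPM in dark (SD, n = 6 each). On the log2 scale light minus dark was 3.74 ± 0.35 (± SE), a 13.4-fold difference (adjusted p = 0.000205 by edgeR's quasi-likelihood test). Of the sum of squares among the 6 time points, 89.4% lay between the phases, against 20% if it were spread evenly over the 5 degrees of freedom. The gene lies on chromosome 11 (98767932 to 98775333, minus strand, GENCODE annotation of GRCm38) and overlaps the end of Thra on the opposite strand, and the reads carry no strand.

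Cry1 measured 10.7 and 8.28 CPM at ZT2, 4.84 and 7.65 CPM at ZT6 and 5.18 and 5.49 CPM at ZT10, against 12.8 and 12.5 CPM at ZT14, 18.9 and 19.1 CPM at ZT18 and 16.6 and 32.9 CPM at ZT22. Its level was lowest at ZT10 and highest at ZT22, and the phases did not overlap. The mean was 7.02 ± 2.27 CPM in light and 18.8 ± 7.49 CPM in dark (SD, n = 6 each). The log2 difference was -1.42 ± 0.21 (adjusted p = 0.0305 by edgeR), 2.67-fold lower in light. Nr1d1 passed the threshold in 30 of 30 other ways of fitting and Cry1 in 16, and both kept their direction in all 30.

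Elovl5, which lengthens polyunsaturated fatty acids, was high around lights on rather than through the light phase. It measured 418 and 469 CPM at ZT2, 249 and 122 CPM at ZT6 and 123 and 119 CPM at ZT10, against 44.1 and 53.4 CPM at ZT14, 68.2 and 62.4 CPM at ZT18 and 235 and 278 CPM at ZT22. The phases overlapped, since both ZT22 libraries stood above the ZT10 ones. The log2 difference was 1.20 ± 0.20 (adjusted p = 0.0481 by edgeR), and the gene also varied within the phases (adjusted p = 0.00297).

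Hsph1, which encodes the HSP110 nucleotide exchange factor of HSP70, was the only called member of the heat shock list. It measured 30.1 and 19.5 CPM at ZT2, 13.7 and 10.3 CPM at ZT6 and 17.7 and 20.9 CPM at ZT10, against 61.7 and 60 CPM at ZT14, 84.4 and 40.8 CPM at ZT18 and 18.5 and 43.1 CPM at ZT22. The overlap came from the dark library 2C, at 18.5 CPM. Light minus dark was -1.45 ± 0.24 log2 units (adjusted p = 0.0481 by edgeR), 2.73-fold lower in light.

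Slc7a2, the cationic amino acid transporter of liver, ranged from 102 to 221 CPM in light, with a median of 127 CPM, and from 38.8 to 121 CPM in dark, with a median of 63.6 CPM. It was highest at ZT10 and lowest at ZT18, with a log2 difference of 1.08 ± 0.18. Mir22hg ranged from 13.5 to 27.0 CPM in light (median 20.8) and from 4.99 to 12.5 CPM in dark (median 8.17), a log2 difference of 1.25 ± 0.21. Both had an adjusted p of 0.0481 by edgeR. The annotation places Tlcd2 over part of Mir22hg and Gm26584 over part of Slc7a2, and reads of such overlaps cannot be told apart. Mir22hg is the host transcript of the microRNA miR-22, and the mature microRNA was not measured here. Its main mature form, from chromosome 11 (75463772 to 75463793, plus strand, RefSeq, GRCm38.p6), is shown because the host gene is among the 8, with the seed, bases 2 to 8, in capitals.
mmu-miR-22-3p: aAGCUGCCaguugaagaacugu

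Gm36041, annotated as a long intergenic noncoding RNA on chromosome 10 (122386892 to 122435033), ranged from 2.03 to 14.3 CPM in light (median 8.13) and from 0.727 to 8.10 CPM in dark (median 1.42). Like Elovl5 it was highest at ZT2 and had a second high value at ZT22, and the phases overlapped. The log2 difference was 1.67 ± 0.27 (adjusted p = 0.0466 by edgeR). These 5 genes with an adjusted p between 0.0466 and 0.0481 each passed in only 8 to 12 of the 30 other ways of fitting, with the direction the same in all 30. Words of 50 bases found in annotated transcripts of other genes made up 0% to 8.43% of each of these genes.

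Promoter windows of RefSeq (GRCm38.p6), from 250 bases before to 50 bases after the start, were found by symbol for 10485 of the 14227 tested genes and for 6 of the 8 called ones. The windows below belong to called genes that hold a clock-related motif, and to Arntl, whose start holds the element that REV-ERB and ROR receptors bind. Capitals mark the E-box CACGTG, bound by ARNTL and CLOCK, the cyclic AMP element TGACGTCA and the ROR element TAGGTCA. The windows are Cry1 at chr10:85185005-85185304 (minus strand), Hsph1 at chr5:149636287-149636586 (minus strand), Elovl5 at chr9:77917115-77917414 (plus strand) and Arntl at chr7:113207261-113207560 (plus strand).
Cry1: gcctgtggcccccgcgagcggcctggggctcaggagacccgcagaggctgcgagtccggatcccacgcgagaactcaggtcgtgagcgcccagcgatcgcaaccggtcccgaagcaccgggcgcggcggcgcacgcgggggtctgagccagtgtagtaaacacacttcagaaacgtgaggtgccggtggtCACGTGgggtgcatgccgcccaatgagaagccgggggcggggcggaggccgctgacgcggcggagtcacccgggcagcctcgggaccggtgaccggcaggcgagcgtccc
Hsph1: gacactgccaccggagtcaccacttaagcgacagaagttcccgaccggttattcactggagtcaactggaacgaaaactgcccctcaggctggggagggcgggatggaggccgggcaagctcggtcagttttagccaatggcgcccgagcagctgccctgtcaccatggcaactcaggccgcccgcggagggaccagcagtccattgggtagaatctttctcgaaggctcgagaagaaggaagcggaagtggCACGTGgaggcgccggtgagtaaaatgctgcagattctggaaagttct
Elovl5: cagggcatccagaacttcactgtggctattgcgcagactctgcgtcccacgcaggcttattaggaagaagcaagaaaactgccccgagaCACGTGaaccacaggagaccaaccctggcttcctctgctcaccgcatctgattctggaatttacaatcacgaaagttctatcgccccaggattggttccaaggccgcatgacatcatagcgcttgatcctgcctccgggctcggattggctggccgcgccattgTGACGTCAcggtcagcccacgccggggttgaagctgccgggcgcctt
Arntl: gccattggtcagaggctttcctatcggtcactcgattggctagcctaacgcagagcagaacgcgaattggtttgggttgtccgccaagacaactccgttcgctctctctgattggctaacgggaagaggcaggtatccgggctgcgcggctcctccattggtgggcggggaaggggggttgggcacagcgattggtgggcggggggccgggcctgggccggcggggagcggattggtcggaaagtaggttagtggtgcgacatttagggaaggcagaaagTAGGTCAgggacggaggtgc

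The Cry1 E-box begins 60 bases before the start, that of Elovl5 161 bases before it, and that of Hsph1 3 bases after it in this window. Searched on both strands, the E-box stood in the windows of 2 of the 2 genes lower in light that had one and of 1 of the 4 genes higher in light. It stood in 11.6% of the windows of all tested genes and in 12.9% of those of genes that varied among the 6 time points. The cyclic AMP element stood in Elovl5 among the called genes, against 3.44% of all tested genes. The ROR element stood in none of the 6 windows and in 2.54% of all, and the D-box TTATGTAA, bound by DBP, TEF and HLF, in none of the 6 and in 0.715% of all. The window of Nr1d1 held none of the 4 motifs.

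The small number of calls between the phases stood beside a larger daily variation. Among the 6 time points 1249 of 14227 genes (8.78%) varied at an adjusted p under 0.05 by edgeR's F-test, and 1237 (8.69%) varied among the time points within a phase, with 1054 genes in both sets. All 8 genes called between the phases were among the 1249. In 748 of the 1249 the highest and the lowest time point lay in different phases, and in 501 they lay in the same phase. With as many light as dark hours, extremes placed at random also fall in different phases more often than in the same phase. These counts alone therefore show no lean toward change between the phases. The light-dark difference made up a mean of 12.8% of a gene's sum of squares among time points in the 1249, against 19.1% over all tested genes, where an even spread over the degrees of freedom gives a mean of 20%. The medians of this skewed share were 5.76% in the 1249 and 10.6% over all tested genes. The highest time point was ZT2 for 141 of the 1249, ZT6 for 287, ZT10 for 93, ZT14 for 85, ZT18 for 325 and ZT22 for 318. In the same order these were 11.3%, 23.0%, 7.45%, 6.81%, 26.0% and 25.5%. Over all tested genes the shares were 14.1%, 18.2%, 13.0%, 11.8%, 18.4% and 24.5%, so ZT22 was nearly as frequent there. The counts within a phase rest on pairs of libraries, since 1237 became 200 without the second ZT2 library, 269 without the first, 324 without AL ZT22 2C, 752 without the first ZT6 library, 565 and 630 without the second and the first ZT10 library and 648 with a replicate block.

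**Figure D2:**
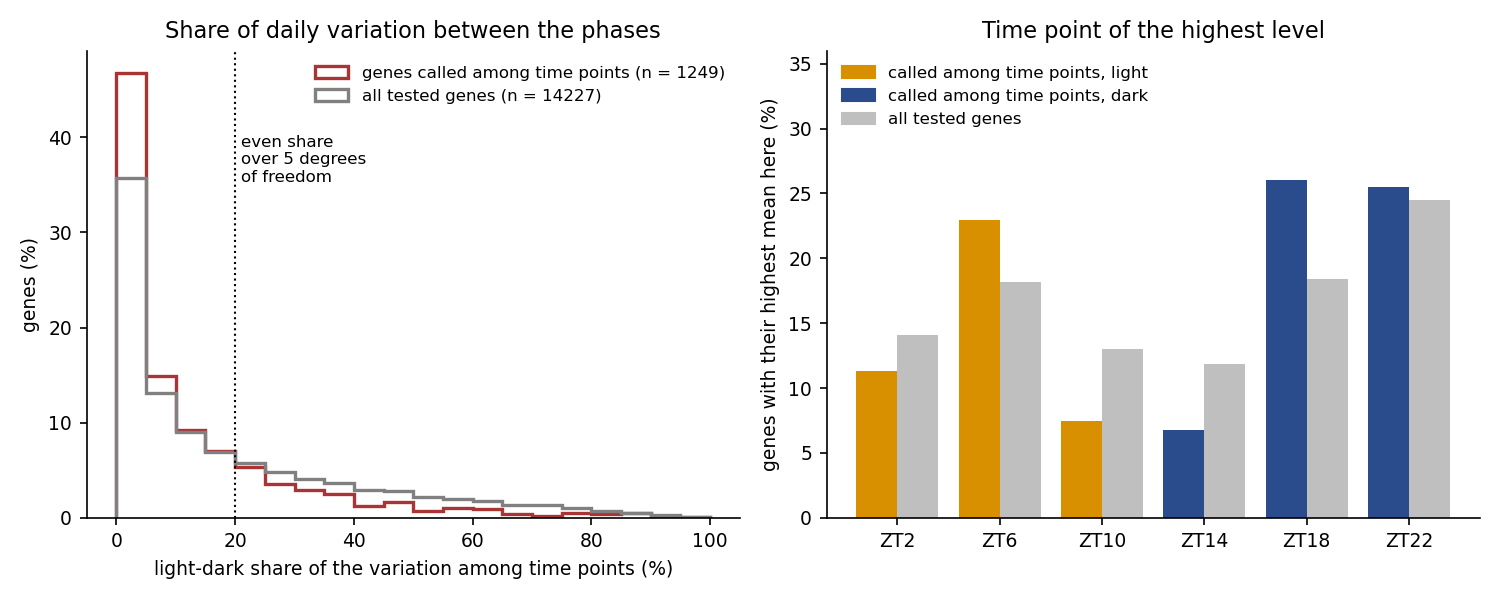
Left, distribution over genes (percent) of the share of variation among the 6 AL time points that lies between light and dark, for genes called among time points and for all tested genes, with the mean share of an even spread, 20%, dotted. Right, percent of genes whose highest mean falls at each time point, with called genes orange in light and blue in dark and all tested genes grey. The called genes pile up at shares under 5%, and their peaks are most frequent at ZT6, ZT18 and ZT22. At ZT22 the percent is close to that of all tested genes, 25.5% against 24.5%.

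Several genes varied within the phases by a low p while their phase means lay close together. Pdk4, the kinase that shuts pyruvate dehydrogenase in fasting, measured 24.1 and 17.5 CPM at ZT2, 4.17 and 2.21 CPM at ZT6 and 0.827 and 0.872 CPM at ZT10, against 1.77 and 1.40 CPM at ZT14, 2.71 and 2.73 CPM at ZT18 and 13.2 and 10.4 CPM at ZT22. Its light minus dark difference was 0.05 ± 0.23 log2 units while the test within phases gave an adjusted p of 0.000157 by edgeR. Dbp, a PAR bZIP activator driven by the clock, measured 0.102 and 0.764 CPM at ZT2, 1.78 and 1.36 CPM at ZT6 and 41.9 and 52.7 CPM at ZT10, against 21.6 and 8.50 CPM at ZT14, 2.52 and 3.17 CPM at ZT18 and 1.01 and 1.72 CPM at ZT22. Both phases hold high and low hours of Dbp, and light minus dark was -0.26 ± 0.34 (within phases, adjusted p = 0.000213 by edgeR). Tef, its relative, and the beta-tubulin Tubb2a had phase differences of -0.11 ± 0.19 and -0.20 ± 0.23, and Chka, the choline kinase, and Lgalsl had 0.14 ± 0.22 and -0.28 ± 0.18. Chka and Lgalsl were highest at ZT2 and ZT22 and lowest at ZT10, like Pdk4, whereas Tef was highest at ZT10, where Tubb2a was lowest.

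The 5 clock activators all varied among the 6 time points. Arntl measured 16.4 and 8.91 CPM at ZT2, 2.87 and 2.34 CPM at ZT6 and 0.504 and 0.283 CPM at ZT10, against 3.22 and 1.40 CPM at ZT14, 5.38 and 6.14 CPM at ZT18 and 11.7 and 17.8 CPM at ZT22. Its high hours lay on both sides of lights on. Light minus dark was -1.31 ± 0.27 log2 units and missed the threshold (adjusted p = 0.0779 by edgeR). Npas2, the partner of ARNTL, measured 5.43 and 4.85 CPM at ZT2 and 3.65 and 4.57 CPM at ZT22, fell to 0.162 and 0.0471 CPM at ZT10 and was without a count in both ZT14 libraries, so that a fold between the phases depends on how zeros are handled and none is given. Clock differed by 0.20 ± 0.17 and Rora by 0.50 ± 0.19 log2 units, and neither was called (adjusted p = 0.652 and 0.278 by edgeR).

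Among the 10 clock repressors 8 varied among the time points, and Nr1d1 and Cry1 were called between the phases. Nr1d2, REV-ERBβ, measured 17.3 and 16.0 CPM at ZT2, 20.4 and 13.3 CPM at ZT6 and 48.2 and 50.7 CPM at ZT10, against 28.4 and 17.0 CPM at ZT14, 7.76 and 9.99 CPM at ZT18 and 7.21 and 9.39 CPM at ZT22. It was highest at ZT10, later than Nr1d1, with a phase difference of 1.02 ± 0.19 log2 units (adjusted p = 0.0701 by edgeR). Per2 measured 2.53 to 6.69 CPM in light and 4.65 to 18.4 CPM in dark, highest at ZT14, with a difference of -1.24 ± 0.24 (adjusted p = 0.0702). Per1 and Per3 were highest at ZT10 and had differences of -0.71 ± 0.33 and -0.29 ± 0.39, with adjusted p of 0.373 and 0.794 by edgeR. The sign of Per1 turned without a composition factor, to 0.00388 log2 units. The order of highest hours among these genes was ZT6 for Nr1d1, ZT10 for Nr1d2, Per1 and Per3, ZT14 for Per2 and ZT22 for Cry1. The plateau of Nr1d1 from ZT2 to ZT10, at 7.74, 11.2 and 10.4 CPM on average, does not separate beyond the spread of its libraries.

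Of 15 clock output genes 12 varied among the time points and none was called between the phases, with 0 higher and 5 lower in light at an unadjusted p under 0.05. Over all tested genes 6.75% were higher and 6.4% lower in light at that threshold, and the median difference was 0.01 log2 units, against -0.30 for the 15 (0.28 without a composition factor, against 0.64 for all). The median of the 15 was -0.12 without AL ZT22 2d, -0.20 with 3 lower without the second ZT18 library, -0.47 without the first ZT18 library and -0.90 with 11 lower without ZT10. Usp2, a deubiquitinase under clock control, measured 1.97 to 4.02 CPM at ZT2 and ZT6 and 77.3 and 75.5 CPM at ZT10, against 33.2 and 55.6 CPM at ZT14, 38.5 and 21.5 CPM at ZT18 and 4.03 and 14.5 CPM at ZT22. Its arithmetic means, 27.7 ± 37.7 CPM in light and 27.9 ± 18.4 CPM in dark (SD, n = 6 each), were nearly equal, while the difference of mean log2 values was -1.27 ± 0.29 (adjusted p = 0.0999 by edgeR). The contrast between phases averages log2 levels, so a gene with 1 very high and 2 very low light hours counts as low. Wee1, a cell cycle kinase, Por, the reductase of cytochromes P450, and the transferrin receptor Tfrc differed by -0.73 ± 0.26, -0.66 ± 0.20 and -0.51 ± 0.19 (0.09 for Tfrc without a composition factor), the other 8 members with a negative sign by -0.11 to -0.58 and 3 members by 0.11 to 0.24.

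The mRNAs of cytosolic ribosomal proteins were lower in light relative to other mRNAs, although without a composition factor their own median was no longer negative. Of 79 tested members, 77 were lower in light, 69 at an unadjusted p under 0.05 and none higher, against a background of 6.4% lower, but 0 passed an adjusted p of 0.05 by edgeR (DESeq2 called 39 and limma-trend 0). The median was -0.64 log2 units, against 0.01 over all tested genes, and single members ranged from -1.18 to 0.33. By time point the median deviation from each gene's mean was -0.77 at ZT2, 0.07 at ZT6 and -0.23 at ZT10, against 0.73 at ZT14, 0.70 at ZT18 and -0.45 at ZT22. The high hours were therefore ZT14 and ZT18, and the late dark hour ZT22 lay with the light hours. Among the 6 time points 47 of the 79 varied at an adjusted p under 0.05 by edgeR, against 8.78% of all genes.

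Rpl32, of the large subunit, had the lowest p among them. It measured 69.8 and 66.7 CPM at ZT2, 117 and 135 CPM at ZT6 and 101 and 136 CPM at ZT10, against 277 and 378 CPM at ZT14, 297 and 242 CPM at ZT18 and 78.3 and 188 CPM at ZT22. Light minus dark was -1.17 ± 0.22 log2 units (adjusted p = 0.0689 by edgeR). Rpl36 differed by -1.18 ± 0.27 (adjusted p = 0.0966). Its mean was 199 ± 107 CPM in light and 448 ± 225 CPM in dark (SD, n = 6 each), and 81.1% of its words of 50 bases also stand in annotated transcripts of other genes, so its own value is uncertain. In the 13 ribosomal protein genes with at most 10% of such words in other genes, 12 were lower in light at an unadjusted p under 0.05, with a median of -0.57.

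The group median depended on the hours and on the scaling. Without ZT22 the median was -1.03 and 63 of the 79 passed an adjusted p of 0.05, without ZT2 it was -0.43 with 21 members lower at an unadjusted p under 0.05, and without ZT14 it was -0.48 with 33. Without AL ZT22 2C it was -0.74, with 70 lower and 4 called, and 7 and 8 were called without the second ZT18 and the second ZT6 library. Without a composition factor the median of all genes moved to 0.64 and that of the ribosomal proteins to 0.01, so that 37 of 79 were lower. Relative to all genes the ribosomal proteins thus stayed lower in that setting. The share of ribosomal RNA reads averaged lower in light, as given above, but its log2 ratio did not pass 0.05 (adjusted p = 0.130 by the exact permutation test). With this ratio as a covariate the median of the ribosomal proteins was -0.55, with 41 lower at an unadjusted p under 0.05. The part of ribosomal RNA reads in the difference was not otherwise tested.

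Translation factors, many of which carry the same pyrimidine tract, had a median of -0.31 over 29 members, 1 higher and 9 lower at an unadjusted p under 0.05, against 6.75% and 6.4% of all tested genes, and none called (median 0.38 without a composition factor). Without ZT2 the median was -0.12, with 3 lower. Eef2, elongation factor 2, ranged from 156 to 533 CPM in light (median 419) and from 363 to 863 CPM in dark (median 642), a difference of -0.80 ± 0.27 log2 units (adjusted p = 0.234 by edgeR). Ribosome biogenesis factors had a median of -0.29 over 30 members, with 0 higher and 7 lower at an unadjusted p under 0.05 (median 0.35 without a composition factor). The 7 became 0 without ZT2, 3 without the second ZT14 library, 4 without the second ZT2 library or AL ZT22 2d, 11 without the first ZT14 or the second ZT18 library and 12 without the second ZT6 library. The nuclear-encoded respiratory chain, another large group of short abundant mRNAs, had a median of -0.09 over 77 members, with 2 higher and 0 lower against the same background, and 20 of them varied within the phases, against 8.69% of all tested genes. The sign of its median rested on single libraries, at 0.12 without AL ZT22 2d, 0.04 without the first ZT14 library, -0.23 with 9 lower without 2C, -0.41 with 33 lower without ZT22 and 0.54 without a composition factor. Its medians by time point were -0.37, 0.50 and -0.15 at ZT2, ZT6 and ZT10, against 0.21, 0.57 and -0.71 at ZT14, ZT18 and ZT22, so both phases held high and low hours.

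**Figure D3:**
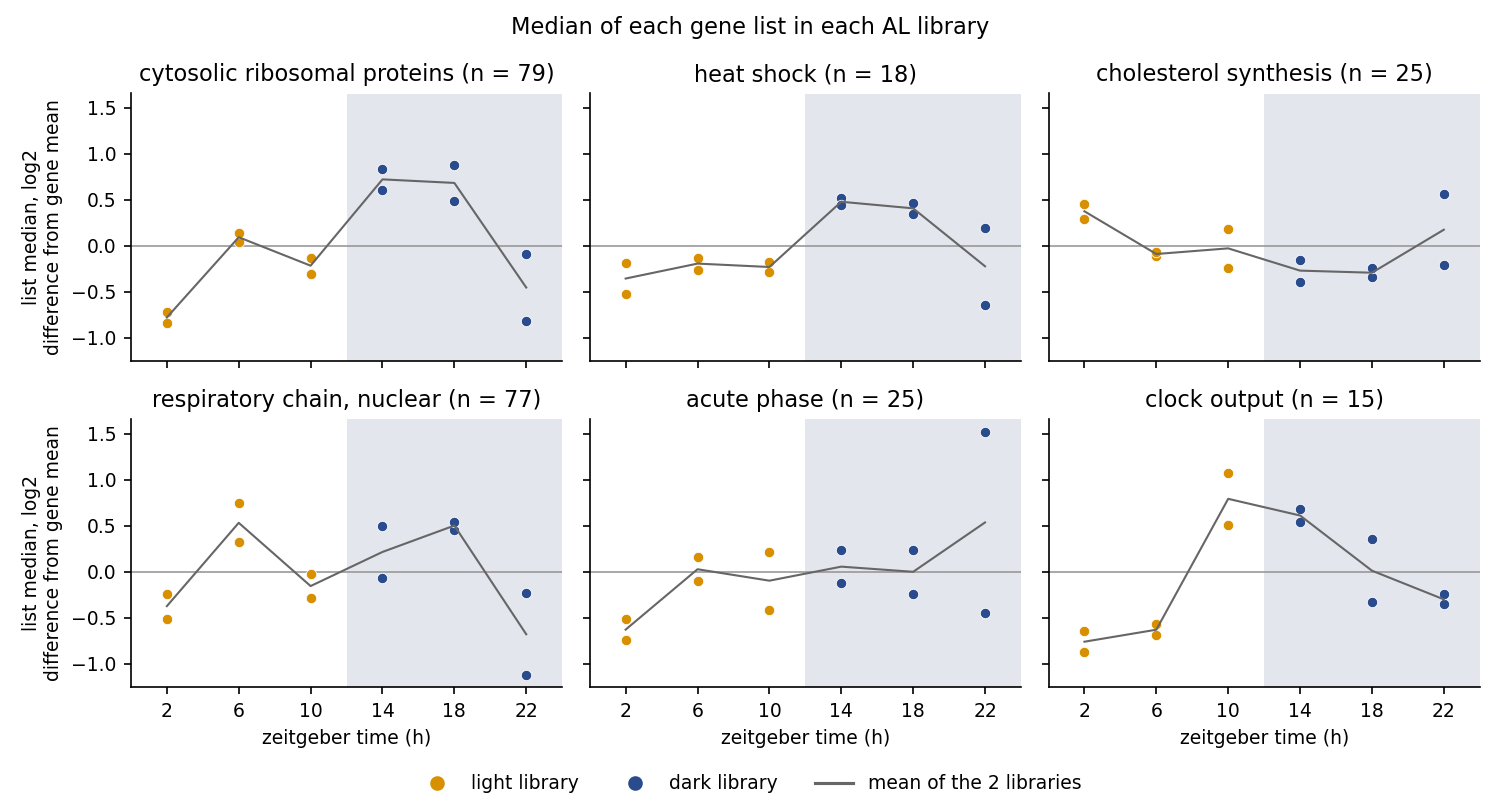
Median, over the tested members of 6 gene lists, of the log2 difference from each gene's mean, against zeitgeber time in hours. Each point is 1 AL library, orange in light and blue in dark with the dark hours shaded, and lines join the means of 2 libraries. On this scale, which is relative to the other mRNAs, ribosomal proteins and heat shock genes are high at ZT14 and ZT18, and library 2C of ZT22 lies at 1.52 for the acute phase list.

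All 18 heat shock genes tested had a negative light minus dark difference, or 7 of 18 without a composition factor, 11 of them at an unadjusted p under 0.05 against a background of 6.4%, and 1, Hsph1, was called. Their median was -0.59 log2 units. Hspa8, the constitutive HSP70, measured 341 and 292 CPM at ZT2, 281 and 333 CPM at ZT6 and 441 and 453 CPM at ZT10, against 1010 and 926 CPM at ZT14, 549 and 573 CPM at ZT18 and 319 and 692 CPM at ZT22. All light libraries lay below all dark ones except the dark library 2C at 319 CPM, and the difference was -0.89 ± 0.22 (adjusted p = 0.115 by edgeR). Hsp90aa1, the inducible cytosolic HSP90, ranged from 83.9 to 341 CPM in light (median 126) and from 104 to 1474 CPM in dark (median 285), with its highest value in the first ZT18 library. The mitochondrial chaperones Hspd1 and Hspe1 had small differences, -0.24 ± 0.20 and -0.17 ± 0.21. The list median was -0.72 without library 2C, -0.34 without ZT18 and -0.85 with 8 members called without ZT22. The list median was 0.07 without a composition factor, still below the median of all tested genes in that setting.

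Cholesterol synthesis genes leaned the other way, with 8 of 25 higher in light at an unadjusted p under 0.05, against 6.75% of all genes, none lower and none called. Their median was 0.21 log2 units, and 0.82 without a composition factor, a setting that also raised the median of all tested genes. Without the outlying library 2C the list median was 0.31 with 10 higher, and without 2d 0.16 with 5 higher. It was 0.09 without the second ZT10 or the first ZT2 library and 0.11 without the first ZT14 library. Without ZT2 it was 0.10, with 4 higher and 1 lower. By time point the median deviation from each gene's mean was 0.37 at ZT2, -0.05 at ZT6 and 0.07 at ZT10. In dark it was -0.23 at ZT14, -0.33 at ZT18 and 0.18 at ZT22. Msmo1, the sterol C4-methyl oxidase, measured 147 and 125 CPM at ZT2, 195 and 107 CPM at ZT6 and 106 and 96.1 CPM at ZT10, against 44.4 and 69.6 CPM at ZT14, 72.1 and 72.3 CPM at ZT18 and 71.4 and 50.6 CPM at ZT22. The phases of Msmo1 did not overlap, yet with a difference of 1.02 ± 0.20 it missed the threshold (adjusted p = 0.0734 by edgeR). Hmgcs1, which makes the precursor of mevalonate, differed by 0.99 ± 0.22 (adjusted p = 0.0966 by edgeR) with its highest level at ZT2 and its lowest at ZT14. Srebf2, the transcription factor of the pathway, differed by -0.17 ± 0.23. Of the 25 members, 9 had a negative sign, and 0 without a composition factor.

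Lipogenesis genes had a median of -0.06 over 22 members, between -0.22 and 0.09 without 1 library, with Elovl5 called higher in light. At an unadjusted p under 0.05, 4 were higher and 5 lower, against 6.75% and 6.4% of all tested genes. Thrsp, a regulator of fat synthesis, ranged from 99.2 to 1470 CPM in light (median 294) and from 405 to 2148 CPM in dark (median 796), with a difference of -1.22 ± 0.39 log2 units (adjusted p = 0.212 by edgeR). Got1, an aminotransferase of gluconeogenesis, ranged from 64.9 to 184 CPM in light (median 93.0) and from 34.7 to 91.0 CPM in dark (median 55.6), with a difference of 0.87 ± 0.22 (adjusted p = 0.120). Gabarapl1, an autophagosome protein induced in fasting, differed by 0.85 ± 0.22 (adjusted p = 0.137), Trib3, a pseudokinase that restrains AKT, by 1.40 ± 0.35 (adjusted p = 0.123) and Irs1, the insulin receptor substrate, by -1.40 ± 0.42 (adjusted p = 0.194), none of them called by edgeR. The ranges of these 5 genes overlapped between the phases.

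The other lists held no called gene. The medians were 0.21 for 31 genes of fat oxidation and PPARα targets, 0.15 for 15 of gluconeogenesis, 0.07 for 15 of glycogen, 0.19 for 20 of bile acids, -0.14 for 8 of the urea cycle and 0.18 for 31 of amino acid catabolism. They were 0.13 for 40 genes of xenobiotic metabolism, 0.22 for 19 NRF2 targets and glutathione genes, -0.01 for 27 insulin and mTOR signalling genes and 0.14 for 21 autophagy genes. Beyond those 10 lists none was called in the proteasome (0.11 over 38), the unfolded protein response (-0.07 over 28), the genes of the mitochondrial genome (-0.34 over 11), the cold-inducible genes (0.23 over 5), the glucocorticoid targets (-0.24 over 16), the immediate early genes (0.04 over 19), the cell cycle (-0.03 over 23) or the periportal and pericentral zones (-0.08 and 0.09 over 15 each). In these 19 lists no member passed an adjusted p of 0.05 by edgeR, while at an unadjusted p under 0.05 the largest counts were 7 of 40 xenobiotic genes higher and 5 of 16 glucocorticoid targets lower in light, against 6.75% and 6.4% of all tested genes. The 7 became 15 without AL ZT22 2d, 4 without the second ZT10 library and 3 without 2C, the second ZT14, the first ZT18 or the first ZT6 library, and the 5 became 3 without 2C. Leaving out 1 library turned the sign of the median in 7 of the 19 lists, among them the mitochondrial genome, at 0.04 without 2d and -0.11 without the first ZT14 library. Without a composition factor all 19 medians were positive, between 0.26 and 0.92. The median of all tested genes rose as well in that setting, so these signs are not relative to the other mRNAs.

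Acute phase genes, which hepatocytes make in inflammation, had a median of -0.60 over 25 members (0.03 without a composition factor). At an unadjusted p under 0.05, 11 were lower in light, against 6.4% of all tested genes. None was called, and the median and the count of 11 moved with 1 library. Lcn2, a siderophore-binding protein of the acute phase, measured 2.08 to 3.09 CPM in the 6 light libraries, against 6.92 and 15.8 CPM at ZT14, 3.44 and 10.1 CPM at ZT18 and 298 CPM in library 2C and 1.47 CPM in library 2d of ZT22. Saa2, serum amyloid A2, measured 14340 CPM in library 2C and 9.31 CPM in library 2d. Without 2C the list median was -0.21, with 4 members lower. Neutrophil markers moved with it: of 8 markers 4 were tested, their median deviation was 3.51 log2 units in library 2C, their summed level ranged from 6.15 to 15.6 CPM in light and from 2.21 to 106 CPM in dark, and the defining marker Ly6g was at 0 in all libraries. Kupffer cell markers, 12 of 12 tested, summed to 281 to 548 CPM in light and 244 to 699 CPM in dark. In such bulk tissue fewer cells of a type and less RNA per cell cannot be told apart.

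In CR liver the same contrast called 434 of 15490 genes (2.8%), 224 higher and 210 lower in light, while AL liver in the same fit on 24 libraries had 19, 10 higher and 9 lower, 5 of them among the 8. The difference between the diets was tested directly, and 0 genes passed an adjusted p of 0.05 by edgeR (lowest adjusted p = 0.110), with 2260 (14.6%) at an unadjusted p under 0.05, 260 called by DESeq2 and 0 by limma-trend. A larger count in CR is therefore not shown to be a difference between the diets for any gene. Leaving out single libraries left 888 genes called for the difference without the first CR ZT10 library, 45 without the second AL ZT6 library and 0 to 9 without any other, and the CR count ranged between 28 without the first CR ZT22 library and 2501 without the first CR ZT10 library. Nr1d1 differed by 3.74 ± 0.37 log2 units in AL and 3.55 ± 0.35 in CR, and Cry1 by -1.42 ± 0.26 and -1.81 ± 0.26. For Nr1d1 the AL difference minus the CR difference was 0.19 ± 0.50 log2 units (unadjusted p = 0.708 by edgeR). Slc7a2 differed by 1.08 ± 0.21 in AL and 1.17 ± 0.21 in CR and Hsph1 by -1.45 ± 0.31 and -1.60 ± 0.32. Gm36041, at 1.67 ± 0.41 in AL and 0.39 ± 0.39 in CR, and Mir22hg, at 1.24 ± 0.28 and 0.52 ± 0.27, had unadjusted p of 0.0326 and 0.0745 for the difference between the diets by edgeR.

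Dbp showed the largest diet contrast of the clock genes, -0.27 ± 0.44 log2 units in AL and 2.60 ± 0.46 in CR, a difference of -2.87 ± 0.64 (unadjusted p = 0.000195, adjusted p = 0.171 by edgeR). Its mean was 16.4 ± 24.2 CPM in light and 6.42 ± 7.89 CPM in dark in AL, where the log2 means of the phases balanced while the 4 libraries of ZT2 and ZT6 lay at 1.78 CPM or below. Nfil3, which represses the targets of DBP, differed by -0.31 ± 0.22 in AL and -1.49 ± 0.22 in CR (unadjusted p = 0.00105, adjusted p = 0.171). The 8 genes of lowest p for the diet difference at 10 CPM or more were Slc17a4, Sptan1, Svil, Plekhb1, Pbld2, Iqgap2, Prpf8 and Crip2, with adjusted p of 0.110 to 0.171 by edgeR. In the first 7 of them the light minus dark values had opposite signs in AL and CR, as in Sptan1, a spectrin of the membrane skeleton, at -0.89 ± 0.29 in AL and 1.25 ± 0.29 in CR. Choosing genes by the diet difference favours opposite signs, so the signs add no separate evidence. Ribosomal proteins had a median of -0.64 in AL and -0.87 in CR in this fit, and heat shock genes -0.59 and -0.90, with no member of either list called for the difference between the diets.

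**Figure D4:**
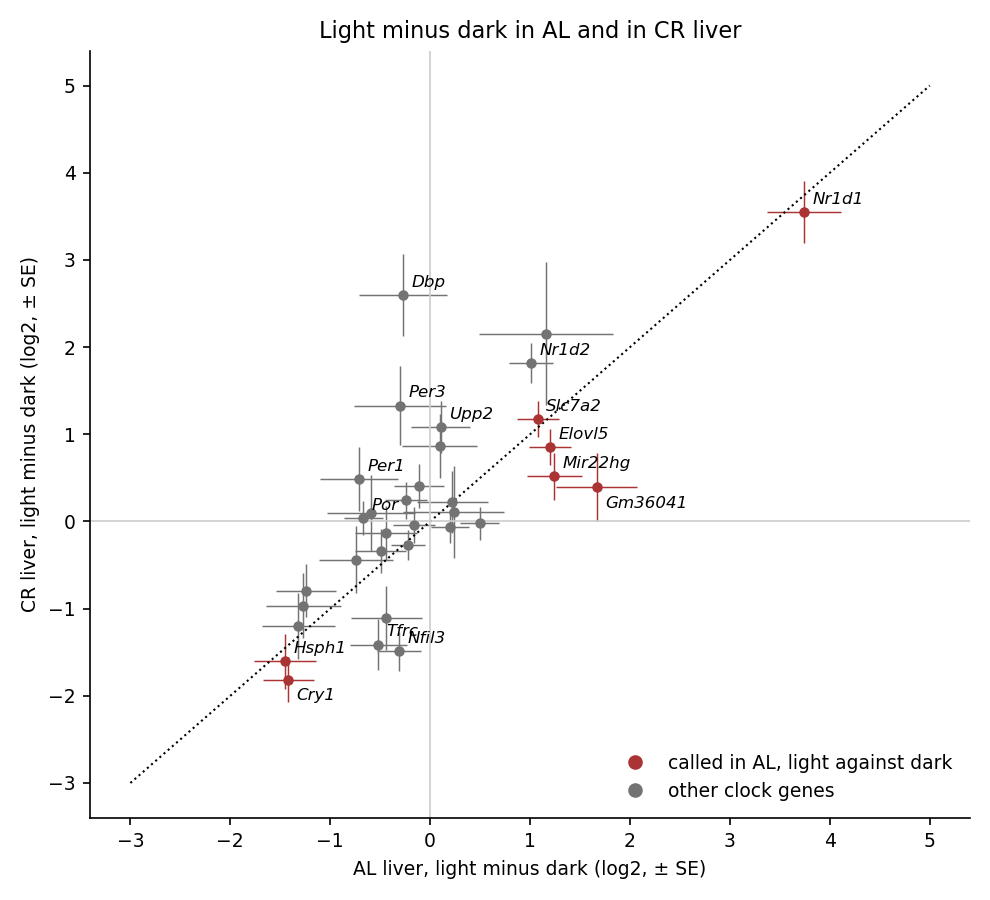
Light minus dark on the log2 scale in AL liver (horizontal) and in CR liver (vertical), from the fit on 24 libraries, for 33 clock genes and genes called in AL (red), with bars of 1 SE in each direction and the line of equality dotted. Genes called in AL and those with an unadjusted p under 0.05 for the diet difference are named. Nr1d1, Cry1, Hsph1 and Slc7a2 lie within 2 SE of the line, and Dbp lies at -0.27 in AL and 2.60 in CR.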

How the data were processed

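Polysome-associated, poly(A)-selected and non-stranded RNA of mouse liver was sequenced in 24 libraries, per the labels' protocols. The deposited values are raw counts of reads per gene; FastQC, HTSeq, DESeq2 and the build GRCm38.p5 are named in the submitters' processing notes, with no versions. Groups followed the labelled diet and hour. Genes passing filterByExpr (14227 in AL) were scaled by TMM and fitted as 6 time-point means with edgeR 4.0.16 (quasi-likelihood, R 4.3.3), with Benjamini-Hochberg adjustment at 0.05. Contrasts were the mean log2 level of 3 light minus 3 dark time points, all 6 time points, and time points within phases. The diets were compared in 1 fit of 24 libraries. The contrasts between and within phases in AL were tested on simulated data. DESeq2 1.42.0, limma 3.58.1, other scalings, filters, a replicate block, a ribosomal RNA covariate and omitted libraries or hours were alternatives. Deviations of same-numbered libraries correlated at -0.292 to 0.184 over 10 pairs of time points. ZT22 was not included, and these values do not settle whether the libraries pair.

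Genes were named by rule: called genes of at least 10 CPM with the largest difference, the clock lists, the leading members of each list, the 8 genes of lowest p for the diet difference, and 6 genes varying within but not between phases. Gm36041 and further list members given as examples were chosen after their values were seen. The comparison and the 30 gene lists were chosen with earlier results of these data known. Total counts per library were 13.8 to 37.6 M. Between libraries of 1 time point the chi-square per degree of freedom was 132.5 to 1075, where sampling noise alone gives about 1. This is a ratio of variances over all counted features, ribosomal RNA included, rather than over the tested genes. Not every gene chosen in this way is reported.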

Additional observations from a re-analysis of the deposited data

Results flagged for a closer look

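In 8 of 136 groups of 6 libraries, 1 library lay far from the other 5, where chance flags about 1 group in 20. AL ZT22 2C was that library in 5 of them, all dark list medians of the log2 deviation from each gene's mean. It lay at 1.52 for the acute phase list, at 0.557 for cholesterol synthesis, at -0.641 for heat shock, at -0.834 for xenobiotic metabolism and at -0.589 for the periportal list, while the other 5 dark libraries lay between -0.453 and 0.238, -0.390 and -0.151, 0.194 and 0.514, -0.0957 and 0.24, and -0.0433 and 0.261 for the same lists. AL ZT6 1 stood above the other light libraries for the unfolded protein response, at 0.309, and for xenobiotic metabolism, at 0.493. AL ZT18 1 stood above the other dark libraries for the unfolded protein response, at 0.671.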

How the results depend on the processing

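The count of 8 genes called between light and dark moved in most settings, although all 8 kept their direction in every one of 30 other settings. It was 311 with DESeq2, 377 without the low-count filter, 3996 without a composition factor, 19 with all 24 libraries in the fit, 3 with at least 1 CPM in 6 libraries, 3 with size factors of the DESeq2 kind, 2 with limma-trend, 2 with a term for ribosomal RNA, 4 without ribosomal RNA features and 1 with the phase alone as a term. Leaving out a time point gave 3 without ZT2, 62 without ZT6, 12 without ZT10, 5 without ZT14, 16 without ZT18 and 445 without ZT22, and leaving out 1 library gave 1 to 189. Without AL ZT10 1 and AL ZT22 2C together it was 1. At an adjusted p under 0.1 it was 79 and at an unadjusted p under 0.05 it was 1872, both thresholds added after seeing the data.

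The 1249 genes that varied among time points became 3247 with DESeq2, 2761 without a composition factor, 3084 without the filter, 93 without those 2 libraries together and 141 to 1750 without 1 library. The 1237 that varied within phases became 2988, 586, 2795, 46 and 200 to 1638 in the same order. The 0 genes for the difference between diets became 260 with DESeq2, 4691 without a composition factor, 526 without the filter and 0 to 888 without 1 library, and the 434 of CR became 1272, 282, 1275 and 28 to 2501, and 104 with the ribosomal RNA covariate. With replicate number as a block the counts were 2 between light and dark, 509 among time points, 648 within phases and 2 between diets. Whether the numbers pair the libraries is not known.

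Without a composition factor the sign turned for Tfrc (0.0925), Per1 (0.00388) and Nampt (0.124), and the difference in mitochondrial ribosomal RNA turned to 0.0916 percentage points without AL ZT22 2d, within -2.15 to 0.0916 without 1 library. Light minus dark in total counts was 6.53 to 11.1 M reads and in the log2 ribosomal RNA ratio -2.75 to -1.35 without 1 library. The cause of these changes was not tested.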
